A study of Mus musculus with 25 samples.

Results

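The comparison described here is that of small extracellular vesicles from the liver of mice aged 6 weeks with those from mice aged 1 week. Its members were all libraries whose labels give either age, 10 of the 25 libraries of the series: 5 from 1-week mice (mice 1, 3, 4, 5 and 27) and 5 from 6-week mice (mice 6 to 10), with 1 mouse per library. All mice of both ages, as of the whole series, were wild-type C57BL/6J without any treatment named in the labels. The sexes were represented equally, but the sex of a single mouse is not given. Per the labels, livers were opened with a tumour dissociation kit from Miltenyi, vesicles were collected by ultracentrifugation, and small RNA was sequenced with QIAseq miRNA libraries on a NovaSeq. The label for batch repeats the age, so age and the handling of each age cannot be told apart. Vesicles were collected from whole dissociated tissue, so a smaller number of vesicles from a cell type and less of a miRNA per vesicle cannot be told apart either. The liver label was checked against miR-122-5p, the defining miRNA of hepatocytes, which held 56.1% to 67.5% of counts in the 1-week and 53.9% to 61.3% in the 6-week libraries.

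Small extracellular vesicles are membrane-bound particles that cells release, and they carry mature miRNAs, short RNAs of about the length printed below that guide Argonaute proteins to matching messenger RNAs. Pairing rests mainly on the seed, bases 2 to 8 of the miRNA, so miRNAs with the same seed form a family with largely shared targets. Each precursor hairpin can give a mature miRNA from its 5′ arm (5p) and one from its 3′ arm (3p). Around birth the mouse liver still forms blood cells and grows quickly, and many genes of imprinted loci are highly expressed in it. Over the following weeks hepatocytes mature, while haematopoiesis moves to the bone marrow and imprinted growth genes are switched down.

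The sequences below are those that the results turn on, from RefSeq (GRCm38.p6), 5′ to 3′, with the seed in capitals. The first set holds miRNAs with higher levels at 6 weeks: the guide strands of the miR-29 family, let-7a and let-7g, the hepatocyte pair miR-192 and miR-194, and members of the clusters of miR-23 and miR-27.
miR-29a-3p: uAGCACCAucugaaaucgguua
miR-29b-3p: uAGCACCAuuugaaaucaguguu
miR-29c-3p: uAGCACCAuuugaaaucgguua
let-7a-5p: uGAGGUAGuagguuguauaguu
let-7g-5p: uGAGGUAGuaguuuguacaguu
miR-192-5p: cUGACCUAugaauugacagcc
miR-194-5p: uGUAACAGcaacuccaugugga
miR-23a-3p: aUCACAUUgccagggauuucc
miR-27b-3p: uUCACAGUggcuaaguucugc
The next set holds miRNAs with lower levels at 6 weeks: members of the imprinted loci Dlk1-Dio3 (miR-379, miR-411 and miR-382), Igf2 (miR-483), Gnas (miR-298) and Mest (miR-335), and miR-206 of skeletal muscle.
miR-379-5p: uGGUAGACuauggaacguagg
miR-411-5p: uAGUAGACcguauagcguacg
miR-382-5p: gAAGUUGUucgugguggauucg
miR-483-5p: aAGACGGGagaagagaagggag
miR-298-5p: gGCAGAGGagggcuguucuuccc
miR-335-5p: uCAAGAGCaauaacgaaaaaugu
miR-206-3p: uGGAAUGUaaggaagugugugg
The remaining sets hold families whose members share a seed but differed in direction or in the spread between mice. The let-7 member let-7i-5p was lower at 6 weeks, unlike let-7a-5p and let-7g-5p above.
let-7i-5p: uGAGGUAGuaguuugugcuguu
miR-148a-3p: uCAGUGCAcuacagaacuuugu
miR-148b-3p: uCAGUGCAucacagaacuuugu
miR-152-3p: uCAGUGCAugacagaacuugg
miR-99a-5p: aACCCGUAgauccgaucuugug
miR-100-5p: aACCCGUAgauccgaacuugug
miR-99b-5p: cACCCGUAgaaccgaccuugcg
miR-16-5p: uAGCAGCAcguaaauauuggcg
miR-15b-5p: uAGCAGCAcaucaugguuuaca
miR-195a-5p: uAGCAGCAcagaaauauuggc
miR-322-5p: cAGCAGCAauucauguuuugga
miR-125a-5p: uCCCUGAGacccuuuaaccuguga
miR-125b-5p: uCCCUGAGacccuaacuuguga
miR-351-5p: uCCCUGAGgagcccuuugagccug
The arms of miR-31 are printed because their ratio moved most between the ages.
miR-31-5p: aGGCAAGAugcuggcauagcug
miR-31-3p: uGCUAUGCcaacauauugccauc
Positions counted from 1 at the 5′ end of the first-named sequence, let-7a-5p and let-7g-5p differ by G12U and U18C, and let-7g-5p and let-7i-5p by A17G and A19U. Likewise miR-29a-3p and miR-29c-3p differ by C10U alone, and miR-99a-5p and miR-100-5p by U16A alone. From miR-148a-3p, miR-148b-3p differs by C9U and U10C, and miR-152-3p by C9U, U10G and U20G. In 21 pairs of entries the counts never differed by more than 0.3 on the log2 scale within a library, among them miR-29a-3p with miR-29c-3p, miR-99a-5p with miR-100-5p, miR-23a-3p with miR-23b-3p and miR-27a-3p with miR-27b-3p. These pairs are therefore not independent results, and how such reads were assigned is not stated.

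The 1-week libraries were deeper, with totals of 2095925 to 6888928 counts against 641579 to 1738208 at 6 weeks. Levels are given as counts per 1000000 scaled with TMM factors (CPM). These factors were 1.30 to 1.78 at 1 week and 0.947 to 1.04 at 6 weeks, so the scaling itself differs between the ages. A floor of 3 counts equals 0.283 to 0.911 CPM at 1 week and 1.78 to 4.89 CPM at 6 weeks, and a miRNA without a count lies below it. Where levels are listed for single libraries, the order is mice 1, 3, 4, 5 and 27 at 1 week and mice 6, 7, 8, 9 and 10 at 6 weeks. Log2 fold changes are 6 weeks minus 1 week, with the SE and the Benjamini-Hochberg adjusted p of edgeR's quasi-likelihood test. Among the 1-week libraries that of mouse 27 stood apart, with a median deviation of 0.685 log2 units from the other 4, against 0.309 to 0.455 in the remaining 1-week and 0.289 to 0.437 in the 6-week libraries. Mouse 27 had the highest 1-week level in 135 and the lowest in 138 of the 391 tested entries. In several miRNAs below mouse 4 came second to it, and results that rest on these libraries are given with and without them.

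Of the 1493 entries, 391 had enough counts to be tested, and of these 281 passed an adjusted p of 0.05, which is 71.9% of those tested. They were 137 higher (35% of those tested) and 144 lower (36.8%) at 6 weeks, and 244 (62.4%) also differed at least 2-fold. In 224 entries (57.3%) the 5 libraries of one age all lay above the 5 of the other, with 112 (28.6%) in each direction. Scaled by library totals alone, which moved the median of all entries by -0.66 on the log2 scale, 88 entries were higher and 178 lower. With upper quartile scaling, which moved it by 0.48, the split was 184 and 120. Across TMM, library totals, DESeq2 size factors and the upper quartile, 88 entries were higher and 120 lower under each. A count of members below is read against these shares, and a share near them is no result about a list. Without mice 4 and 27, 147 entries were higher and 138 lower.

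**Figure D1:**
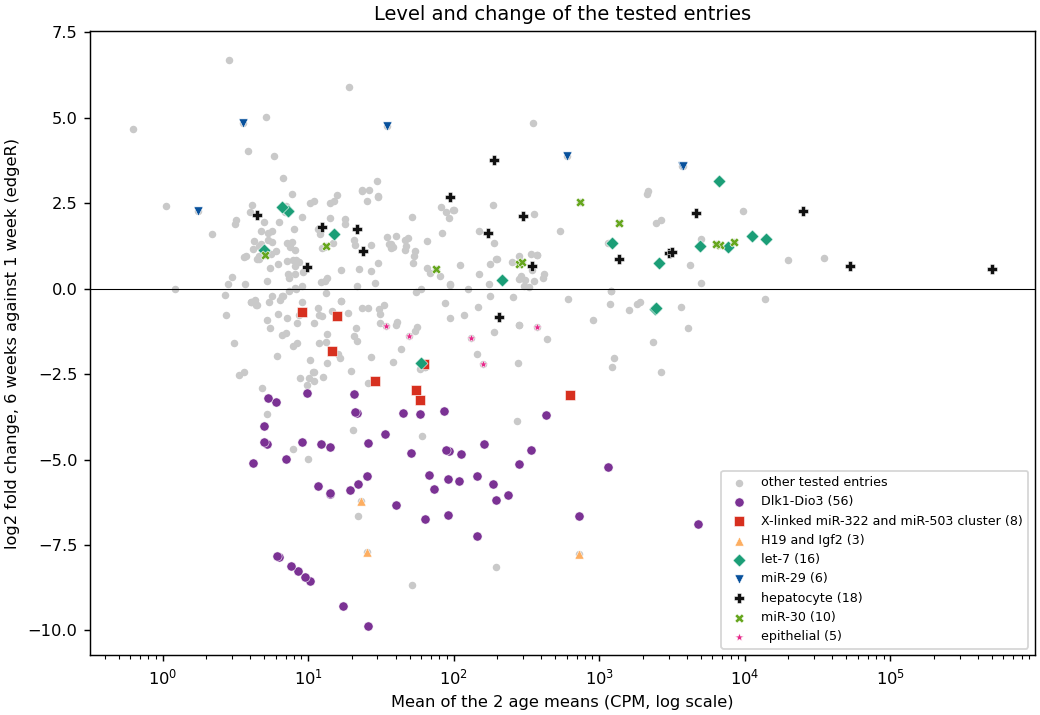
Log2 fold change of each of the 391 tested entries (6 weeks against 1 week, vertical axis) against the mean of its age means in CPM (horizontal axis, log scale), with symbols for 8 lists and the number of tested members in brackets. The 56 Dlk1-Dio3 entries lie between -9.88 and -3.04, while the most abundant entries lie near or above 0.

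Of the 12 largest falls at 50 CPM or more at 1 week, all but that of miR-206-3p came from imprinted loci. Dlk1-Dio3, an imprinted region of chromosome 12, carries a long array of miRNAs that are expressed from the maternal allele and are mostly silent in adult liver. Summed over all 98 listed entries, the level was 20146 ± 7962 CPM at 1 week and 380.1 ± 172 CPM at 6 weeks (mean ± SD, n = 5), and 41 of the 98 had no count at 6 weeks. The filter on low counts passed 56 entries, 48 of them with a mean under 10 counts per library at 6 weeks. Those 48 passed through ages where they were higher, so that all 56 fell, with no overlap between the groups, is in part set by the filter. When a mean of at least 10 counts was required at each age, 8 entries were tested and 8 fell. The median log2 fold change of the 56 was -5.34, or -4.72 with the 8 members without 6-week counts put at the floor of 3 counts per library, against 0.12 over all tested entries. Its largest part by level was miR-379-5p (chr12:109709060-109709125, GRCm38), with 3183, 5252, 11910.0, 5582 and 21209.8 CPM at 1 week and 71.1, 35.9, 72.6, 88.5 and 123.7 CPM at 6 weeks (log2 fold change -6.89 ± 0.63, adjusted p = 1.06e-09). Mice 4 and 27 held the highest levels of miR-379-5p, yet the lowest 1-week value was still far above the highest 6-week value. The next miRNA of the array, miR-411-5p (chr12:109710175-109710256), was far more even among the 1-week mice, with 1832, 2086, 2374, 2133 and 2721 CPM at 1 week and 50.2, 35.9, 41.6, 92.9 and 72.6 CPM at 6 weeks (log2 fold change -5.23 ± 0.55, adjusted p = 5.30e-09). In miR-382-5p, whose hairpin lies in an exon of the non-coding gene Mirg (chr12:109733771-109733846), levels were 948, 1244, 1675, 1227 and 2162 CPM at 1 week and 4.19, 6.53, 12.6, 15.05 and 28.5 CPM at 6 weeks. All 5 libraries of each age were thus apart, and the change of miR-382-5p was -6.64 ± 0.47 (adjusted p = 1.03e-11).

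In the further members of the array named here, many 6-week values were at or under the floor of 3 counts. Their fitted folds are therefore not compared with each other. Counts of miR-329-3p were absent from all 5 libraries at 6 weeks, against 26.1 to 102 CPM at 1 week, so its mean was at least 15.8-fold lower against a floor of 3 counts in each library. For miR-134-5p, also in Mirg, the levels were 155.3, 211, 411.1, 209 and 448 CPM at 1 week and 0, 0, 0.968, 3.54 and 2.97 CPM at 6 weeks, and the change was -7.24 ± 0.63. Fitted changes were -6.74 ± 0.61 for miR-673-5p, -6.63 ± 0.67 for miR-431-5p, -6.34 ± 0.53 for miR-323-3p and -6.19 ± 0.53 for miR-494-3p. At or under the 6-week floor were miR-673-5p and miR-323-3p in 5 libraries, miR-431-5p in 4, miR-134-5p in 3 and miR-494-3p in 2. The change of miR-127-3p, which lies opposite the retrotransposon-like gene Rtl1, was -4.85 ± 0.46, from 133.9 to 276 CPM to 1.94 to 12.4 CPM. At 6 weeks miR-127-3p was at or under the floor in 3 libraries. Unlike miR-379-5p, miR-127-3p was lowest in mouse 27 among the 1-week libraries. Within the array, therefore, mouse 27 was high in some members and low in others.

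Other imprinted loci fell as well, to different depths. The tested members at H19 and Igf2, neighbouring imprinted growth genes on chromosome 7, passed the filter through the 1-week libraries, and none was tested when each age needed a mean of 10 counts. Their 3 falls are thus in part set by the filter. The locus had a summed level of 1555 ± 451.1 CPM at 1 week and 5.93 ± 8.83 CPM at 6 weeks. At chr7:142654924-142654996, in an intron of the fetal growth factor gene Igf2, lies miR-483, and the levels of miR-483-5p were 978, 1395, 2044, 1733 and 1128 CPM at 1 week and 0, 1.63, 4.84, 0.885 and 19.6 CPM at 6 weeks (log2 fold change -7.77 ± 0.93, adjusted p = 8.65e-08). Mouse 10 kept the highest 6-week level of this arm. The 3p arm miR-483-3p had counts in mouse 10 only at 6 weeks (log2 fold change -7.71 ± 0.80). From an exon of H19, miR-675-3p changed by -6.22 ± 0.72, from 21.9 to 93.3 CPM to 0 to 1.19 CPM. At Gnas, the imprinted gene of a signalling G protein, the tested miR-298-5p and miR-296-3p fell by 8.68 and 6.64 on the log2 scale, from summed levels of 151 ± 84.6 CPM to 1.35 ± 1.20 CPM, and they too passed the filter through the 1-week libraries. The level of miR-298-5p was 26.1, 86.1, 149.9, 79.8 and 174 CPM at 1 week and 1.40, 0, 0, 0 and 0 CPM at 6 weeks, so 1 library alone had a count at 6 weeks. Folds of miR-298-5p, miR-296-3p, miR-483-3p and miR-675-3p rest on 1 to 3 counts at 6 weeks and have wide counting intervals. With counts pooled over the libraries of an age, which weights the deep library of mouse 27 most, the 1-week to 6-week ratio, with its 95% exact interval for counting error only, was 624 (112 to 24646) for miR-298-5p and 301.2 (54.0 to 11905) for miR-483-3p. It was 128 (35.2 to 1055) for miR-296-3p and 100.1 (34.2 to 486.1) for miR-675-3p. Means that weight mice equally were 103 and 0.279 CPM for miR-298-5p and 51.0 and 0.119 CPM for miR-483-3p.

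Tested members at Mest and Sfmbt2 had smaller fold changes. In an intron of Mest, an imprinted mesoderm gene, at chr6:30741299-30741396 lies miR-335, and miR-335-5p was at 2483, 2271, 1364, 2349 and 1633 CPM at 1 week and 398, 547, 547, 466.4 and 517 CPM at 6 weeks (log2 fold change -2.03 ± 0.18, adjusted p = 4.08e-10). The groups did not overlap, and mice 4 and 27 had the lowest 1-week levels of miR-335-5p, opposite to their place in miR-379-5p. Its 3p arm moved alike, with a log2 fold change of -2.63 ± 0.38 for miR-335-3p, which was at or under the floor of 3 counts in 4 of the 5 6-week libraries. Of 54 entries of the large intronic cluster of Sfmbt2, 39 had no count in the shallower 6-week libraries, against 4 at 1 week. The filter passed 4, and all fell (background 36.8% lower), 3 of them under all 4 scalings. Of the 4, 3 had a mean under 10 counts per library at 6 weeks and passed through ages where they were higher. The 4 falls are thus in part set by the filter. They include miR-669c-5p at -1.99 ± 0.36 and miR-467c-5p at -2.53 ± 0.60. The latter was at or under the floor in all 5 6-week libraries. Copies of some of these names lie elsewhere in the genome, so the Sfmbt2 values are not those of that locus alone.

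A cluster on the X chromosome fell as well. It gives miR-322, the mouse form of human miR-424, with miR-503, miR-351, miR-542 and miR-450, and is known for its part in growth and muscle development. Of 8 tested members 7 fell and none rose (background 36.8% lower), and 6 of the 8 were lower under all 4 scalings. When a mean of at least 10 counts was required at each age, 5 members were tested and 5 fell. Members left out by this had fewer counts at 6 weeks, so the count of 7 falls is in part set by the filter. The summed level was 1549 ± 791 CPM at 1 week and 211 ± 35.8 CPM at 6 weeks. For miR-322-5p (chrX:53054255-53054349) the levels were 452, 721, 1492, 761 and 2195 CPM at 1 week and 114, 148.5, 133.6, 77.0 and 169 CPM at 6 weeks (log2 fold change -3.13 ± 0.35, adjusted p = 1.83e-08). Its 1-week spread again placed mice 4 and 27 on top. By contrast, miR-542-3p (chrX:53049403-53049487) was even among the 1-week mice, at 65.1, 108, 126.99, 121.7 and 108 CPM at 1 week and 18.1, 11.4, 4.84, 7.97 and 13.1 CPM at 6 weeks (log2 fold change -3.27 ± 0.34, adjusted p = 4.71e-09). The remaining named members changed by -2.96 for miR-503-5p and -2.22 for miR-351-5p, and miR-450b-3p did not pass the test at -0.70 ± 0.35.

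Most tested markers of leukocytes, red cell precursors, epithelium and muscle were lower at 6 weeks. Of the immune list 5 of 7 tested members fell (background 36.8% lower) and none rose. Without mice 6 and 7 of the 6-week group 3 of 7 fell, and under upper quartile scaling 3 fell and 2 rose. Without mice 4 and 27, or without mouse 27 alone, 5 fell and 2 rose. The 2 members not called were miR-150-5p and miR-342-3p. In 1-week mice 1, 3, 4 and 5, miR-150-5p was at 53.7 to 106.4 CPM. At 6 weeks it was at 128.5 to 202.3 CPM, and mouse 27 lay above all 6-week libraries. For miR-342-3p the same ranges were 139.0 to 288.5 CPM and 245.6 to 433.9 CPM, so they overlapped, and mouse 27 was again highest. The falls in the list thus did not extend to these 2. In miR-223-3p, the miRNA of neutrophils and their precursors, levels were 1418, 1571, 2472, 1951 and 2692 CPM at 1 week and 374, 408, 435, 371 and 470.4 CPM at 6 weeks (log2 fold change -2.30 ± 0.22, adjusted p = 9.78e-10). Also lower were miR-155-5p of activated leukocytes at -2.16 ± 0.51 and miR-142a-3p, found across blood cell lineages, at -0.64 ± 0.22. The latter overlapped between the ages and was not called under upper quartile scaling or without mice 6 and 7. Of 5 tested erythroid members 4 fell (background 36.8% lower), namely both arms of miR-144 and the identically counted miR-486a-5p and miR-486b-5p (-2.28 ± 0.31). For miR-144-3p the levels were 199.3, 306, 249.9, 318 and 74.8 CPM at 1 week and 34.9, 44.1, 76.5, 72.6 and 74.3 CPM at 6 weeks, so mouse 27 lay among the 6-week libraries. The red cell miRNA miR-451a, which is processed from the same transcript as miR-144, was at 436, 307, 194.5, 345 and 112 CPM at 1 week and 113, 178, 309.8, 368 and 193.9 CPM at 6 weeks and did not pass the test (log2 fold change -0.26 ± 0.35, adjusted p = 0.509). Scaled by library totals, miR-451a was called lower, at -0.91 (adjusted p = 0.0409).

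All 5 tested members of the miR-200 family, which marks bile duct and other epithelium, fell under each of the 4 scalings (background 36.8% lower with TMM). Its summed level was 1096 ± 207 CPM at 1 week and 415 ± 41.2 CPM at 6 weeks. The largest fall in it was that of miR-429-3p, at 233, 268, 264, 235 and 305 CPM at 1 week and 60.0, 79.9, 30.98, 59.3 and 55.3 CPM at 6 weeks (log2 fold change -2.20 ± 0.26, adjusted p = 4.43e-08), and miR-200a-3p and miR-200b-3p changed by -1.12 ± 0.17 and -1.43 ± 0.23. The groups overlapped in none of these 3. Skeletal muscle miR-206-3p (chr1:20679010-20679082) was at 275, 148.4, 481, 50.4 and 989 CPM at 1 week and 1.40, 0, 1.94, 0.885 and 1.78 CPM at 6 weeks (log2 fold change -8.13 ± 0.80, adjusted p = 1.90e-09). It varied widely among 1-week mice and was highest in mice 4 and 27. Its relative of heart and skeletal muscle, miR-1a-3p, was at 24.3, 31.5, 11.8, 6.37 and 119 CPM at 1 week and 1.40, 0, 0, 4.43 and 3.57 CPM at 6 weeks (-4.12 ± 0.69), with mouse 27 again highest. These 2 were the only tested members of 9 in the muscle list, miR-206-3p was at or under the floor of 3 counts in all 5 6-week libraries, and neither was tested when each age needed a mean of 10 counts. The part of muscle tissue in the 1-week libraries was not tested. Of 12 neural entries 1 was tested and it was not called. Of the pancreas list the only tested member, miR-375-3p of the islets, also fell (-3.68 ± 0.79), from 4.99 to 18.9 CPM to 0 to 1.78 CPM, at or under the floor in all 5 6-week libraries.

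For mesenchymal and endothelial markers the direction depended on the scaling. Of the 2 tested endothelial entries 1 rose, and with library totals 1 fell and none rose. The endothelial miR-126a-3p, from the gene Egfl7, was at 30995, 19253, 21631, 32322 and 17445 CPM at 1 week and 45443, 48234, 48696, 39209 and 45739.9 CPM at 6 weeks (log2 fold change 0.90 ± 0.16, adjusted p = 2.22e-05). The change was 0.25 (adjusted p = 0.14) when scaled by library totals. In the stellate and smooth muscle list 3 of 9 tested members rose and none fell, while with library totals 1 rose and 6 fell. The share that rose was near the background (35% higher). Counts of miR-199a-3p and miR-199b-3p were identical and those of miR-199a-5p and miR-199b-5p nearly equal, so these pairs are not independent. Of the smooth muscle cluster, miR-143-3p rose by 0.69 ± 0.14 and miR-145a-5p by 1.03 ± 0.18, and neither was called with library totals. The imprinted and epithelial lists kept their direction under all 4 scalings.

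**Figure D2:**
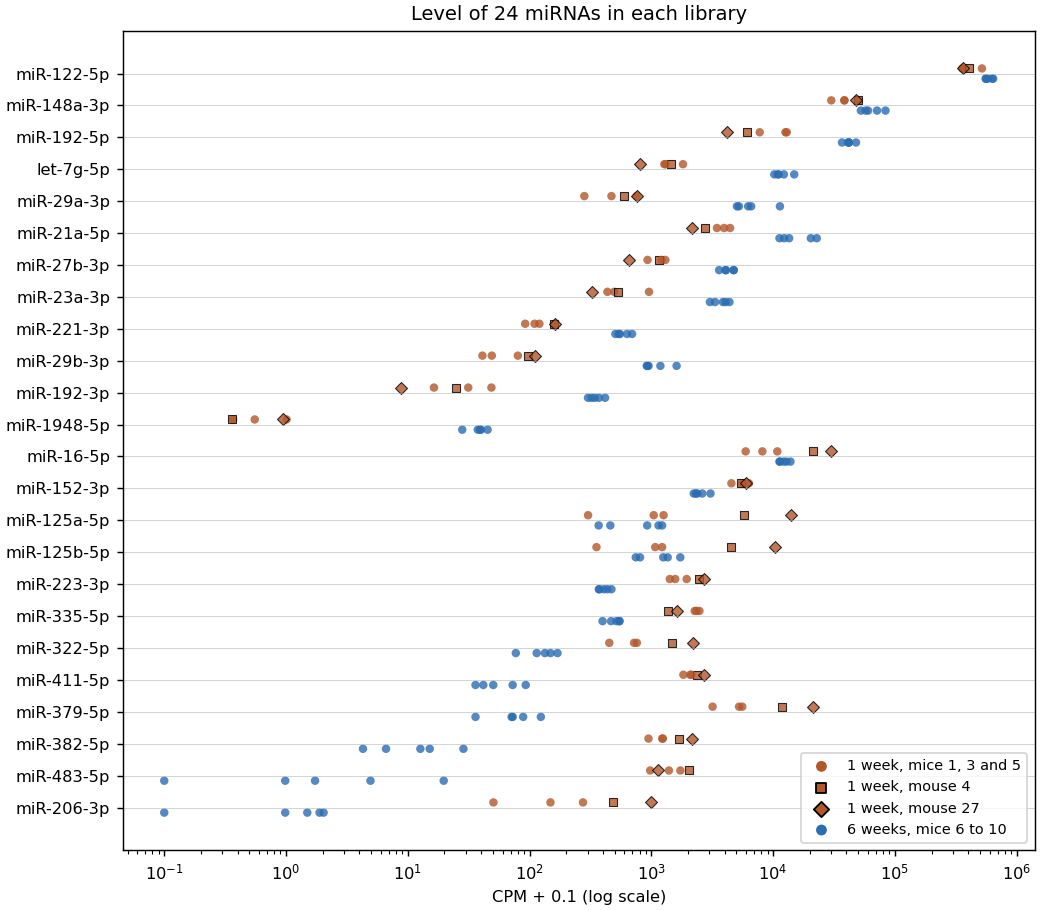
Level of 24 miRNAs in each of the 10 libraries (CPM + 0.1, horizontal axis, log scale), with 1-week libraries above and 6-week libraries below each line and mice 4 and 27 marked. The ages are apart in most, but they overlap in miR-16-5p, miR-125a-5p and miR-125b-5p, where mice 4 and 27 hold the highest 1-week levels.

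Hepatocyte miRNAs rose. Of 18 tested members of the hepatocyte list 14 rose (background 35% higher) and 1 fell, and 11 were higher under all 4 scalings. Their median log2 fold change was 1.38, and 0.74 with library totals, where 11 rose and 1 fell. When a mean of at least 10 counts was required at each age, 8 of 17 rose and 2 fell, with a median of 0.27. Of all 224 entries tested in that way, 67 rose and 90 fell. In the list miR-101a-3p and miR-101b-3p were counted nearly equally and are not independent results. Without mice 4 and 27, 16 of 18 rose and none fell. Next in abundance in the list after miR-122-5p and miR-148a-3p was miR-192-5p (chr19:6264844-6264932), a miRNA under control of hepatocyte nuclear factors, with 12633, 7769, 6050.2, 12946 and 4220.3 CPM at 1 week and 36806, 41272, 41863, 41984 and 47937 CPM at 6 weeks (log2 fold change 2.27 ± 0.21, adjusted p = 9.13e-10). As a share of counts miR-192-5p was 1.35% ± 0.598 at 1 week and 4.14% ± 0.444 at 6 weeks. Its cluster partner miR-194-5p was at 2075, 1739, 1409, 1630.1 and 1376 CPM at 1 week and 6493, 7212, 8456, 7881 and 8086 CPM at 6 weeks (log2 fold change 2.21 ± 0.12, adjusted p = 2.28e-13), with less spread at 1 week. The rarer relative with the seed of miR-192, miR-215-5p, rose by 1.81 ± 0.44.

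For miR-122-5p itself the direction depends on the scaling. Its levels were 359284, 360312, 408478, 518920.0 and 364412 CPM at 1 week and 628516, 641202, 577801, 560295 and 556711 CPM at 6 weeks (log2 fold change 0.56 ± 0.12, adjusted p = 0.000196), while its share of counts was 61.8% ± 4.29 at 1 week and 58.4% ± 2.75 at 6 weeks. Scaled by library totals its change was -0.083 (adjusted p = 0.168), and it was called lower, at -0.26 (adjusted p = 0.0334), when only the 224 entries with a mean of at least 10 counts at each age were kept and scaled. The next in abundance, miR-148a-3p, had 38448, 30035, 49896, 38542 and 47763 CPM at 1 week and 83751, 60254, 52579, 57586 and 71385 CPM at 6 weeks (log2 fold change 0.67 ± 0.17, adjusted p = 0.001) and a share of 6.33% ± 1.10 against 6.39% ± 1.03, with no call under library totals (0.01). The rises of miR-101b-3p (1.06 ± 0.14) and miR-22-3p (0.85 ± 0.31) were close to these in size, and that of miR-22-3p was also lost with library totals. That of miR-101b-3p was called under all 4 scalings, but not when a mean of at least 10 counts was required at each age. Such modest rises of abundant miRNAs are not separated here from the scaling or the filter.

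The rises of the miR-29 guide strands held under each scaling. The miR-29 family represses collagen and other matrix genes. Its 6 tested members all rose (background 35% higher), 5 of them under all 4 scalings. Arms miR-29a-5p and miR-29b-2-5p were at or under the floor of 3 counts in 4 of 5 1-week libraries. They passed the filter through ages where they were higher, so their rises are in part set by it. When a mean of at least 10 counts was required at each age, 4 members were tested and 4 rose. In miR-29a-3p (chr6:31062660-31062747) levels were 757, 282, 600.2, 471 and 767 CPM at 1 week and 5238, 5045, 6240.5, 6605 and 11377 CPM at 6 weeks (log2 fold change 3.58 ± 0.33, adjusted p = 6.40e-10), and in miR-29b-3p they were 80.0, 40.9, 97.1, 48.9 and 111 CPM at 1 week and 949, 930.0, 1187, 917 and 1612 CPM at 6 weeks (log2 fold change 3.88 ± 0.27, adjusted p = 8.66e-12). The 3 members that share the seed printed above summed to 1228 ± 438 CPM at 1 week and 14949.8 ± 5452 CPM at 6 weeks. Of these, miR-29a-3p and miR-29c-3p were counted nearly equally in each library, so the sum may hold the same reads under both names. The ratio of miR-29b-3p to miR-29a-3p was 0.104 to 0.162 at 1 week and 0.139 to 0.190 at 6 weeks, so the ages overlapped in it. The passenger arms miR-29c-5p and miR-29a-5p had larger fold changes than the guide strands, and miR-29c-5p (chr1:195037547-195037634) was at 2.49, 2.41, 1.29, 2.43 and 3.20 CPM at 1 week and 65.6, 88.1, 70.7, 58.4 and 54.7 CPM at 6 weeks (log2 fold change 4.76 ± 0.29, adjusted p = 7.70e-13). Arm miR-29a-5p rose by 4.83 ± 0.58, with 4 of 5 1-week libraries at or under the floor of 3 counts. The passenger arm miR-29b-2-5p rose by less than the guide strands. Its rise (2.26 ± 0.80) was lost without mouse 6 or with library totals.

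The let-7 family, which restrains growth and rises as tissues differentiate, had 11 higher and 3 lower of 16 tested entries (background 35% higher and 36.8% lower). Its highest members let-7a-5p and let-7f-5p were at 6343 to 8545 CPM at 1 week and 18272 to 23303 CPM at 6 weeks and at 4197 to 6893 CPM at 1 week and 15099.6 to 18944 CPM at 6 weeks. Their changes were 1.46 ± 0.14 for let-7a-5p and 1.54 ± 0.15 for let-7f-5p. Smaller rises were those of let-7b-5p (1.26 ± 0.21), let-7c-5p (1.21 ± 0.17), let-7d-5p (1.34 ± 0.15) and let-7e-5p (0.75 ± 0.15), the last not called with library totals. Of the family let-7g-5p rose most, from an intron of Wdr82 (chr9:106178840-106178927), at 1819.5, 1279, 1457, 1309 and 814 CPM at 1 week and 10233, 10933, 12255, 11098 and 14909 CPM at 6 weeks (log2 fold change 3.15 ± 0.19, adjusted p = 7.70e-13). The member let-7i-5p (chr10:122985640-122985724) was at 2558, 2417, 3636, 2959 and 3179 CPM at 1 week and 1799.6, 1858, 1700.0, 2146 and 2382 CPM at 6 weeks (log2 fold change -0.58 ± 0.15, adjusted p = 0.000922), and the groups did not overlap, but it was not called under upper quartile scaling or without mice 6 and 7. These 2 differ only by A17G and A19U, outside the seed. The ratio of let-7g-5p to let-7i-5p, which needs no scaling between libraries, was 0.711, 0.529, 0.401, 0.442 and 0.256 at 1 week and 5.68, 5.88, 7.21, 5.17 and 6.26 at 6 weeks, so their order was opposite at the 2 ages. The passenger arm let-7d-3p also fell (-2.19 ± 0.48) while let-7d-5p rose. The remaining lower entry, let-7j, was counted nearly equally with let-7i-5p and is not an independent result. Among the higher entries let-7a-1-3p and let-7c-2-3p had equal levels in each library and are not independent either.

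The miR-30 family, expressed in differentiated epithelial cells, rose in 9 of 10 tested entries (background 35% higher), and 6 were higher under all 4 scalings. Its most abundant member miR-30a-5p was at 4515, 4227, 4742, 4492 and 5662 CPM at 1 week and 13310.3, 11082, 11809, 12019 and 13024 CPM at 6 weeks (log2 fold change 1.37 ± 0.11, adjusted p = 9.73e-11). Further members were miR-30d-5p at 1.29 ± 0.11, miR-30e-5p at 1.28 ± 0.12 and miR-30c-5p at 1.93 ± 0.16. Nearly equal counts were held by miR-30d-5p and miR-30e-5p, and by miR-30a-3p and miR-30e-3p, so these are not independent results. In miR-30b-5p the rise was larger and the 1-week mice more uneven, at 395, 227, 149, 221.3 and 102 CPM at 1 week and 731, 919, 1443, 1472 and 1695 CPM at 6 weeks (log2 fold change 2.52 ± 0.29, adjusted p = 3.29e-08). Of the miR-26 family, which restrains the cell cycle from within the phosphatase genes Ctdspl, Ctdsp1 and Ctdsp2, miR-26a-5p rose by 1.45 ± 0.17 and the more abundant miR-26b-5p by 0.85 ± 0.18, the latter not with library totals.

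Clusters of miR-23, miR-27 and miR-24 rose in 5 of 5 tested entries (background 35% higher). They lie on chromosomes 8 and 13 and encode near-copies of each other, so the a and b forms are not independent. For miR-23a-3p levels were 957, 495.4, 529, 436 and 324 CPM at 1 week and 4072, 3873, 4381, 3335 and 3029 CPM at 6 weeks (log2 fold change 2.77 ± 0.21, adjusted p = 3.36e-11), and miR-23b-3p changed by 2.85 ± 0.22. For miR-27b-3p levels were 1302, 930.4, 1149.6, 1212 and 658 CPM at 1 week and 4100.1, 4066, 4735, 4753 and 3603 CPM at 6 weeks (log2 fold change 2.02 ± 0.15, adjusted p = 1.39e-11), and miR-27a-3p changed by 1.93 ± 0.15. The third product of both clusters, miR-24-3p, was at 88.0, 119.5, 297.5, 97.7 and 314 CPM at 1 week and 339, 338, 328, 269 and 315 CPM at 6 weeks (log2 fold change 0.79 ± 0.26, adjusted p = 0.00797), and the ages overlapped. This call was lost with library totals. The ratio of miR-23b-3p to miR-24-3p was 10.7, 4.12, 1.60, 4.37 and 0.980 at 1 week and 12.3, 11.7, 13.5, 12.8 and 9.64 at 6 weeks. This ratio, which pools products of both clusters, was thus nearly constant at 6 weeks but not at 1 week, where mice 4 and 27 were lowest.

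Further rises lay outside these families. The growth-related miR-21a-5p, from the gene Vmp1 (chr11:86584067-86584158), was at 4435, 3460.0, 2773, 3966 and 2173 CPM at 1 week and 11278, 12337, 13545, 20414 and 22836 CPM at 6 weeks (log2 fold change 2.26 ± 0.28, adjusted p = 8.42e-08). Its share of counts was 0.526% ± 0.165 at 1 week and 1.59% ± 0.538 at 6 weeks. The X-linked miR-221-3p, which represses the cell cycle inhibitor p27, rose with 120.4, 109.9, 159, 91.98 and 163 CPM at 1 week and 695, 631, 539.2, 552 and 507 CPM at 6 weeks (log2 fold change 2.18 ± 0.17, adjusted p = 5.21e-11). Its partner miR-222-3p rose by 1.12 ± 0.24, a call lost with library totals. The metabolic miR-378a-3p, from an intron of the coactivator gene Ppargc1b, was at 24.03 to 46.7 CPM at 1 week and 116 to 205 CPM at 6 weeks (log2 fold change 2.30 ± 0.20, adjusted p = 4.08e-10). In the list of miR-33 and miR-378, 5 of 6 tested entries rose (background 35% higher). Of these, miR-378a-3p, miR-378c and miR-378d were counted nearly equally in each library and are not independent results.

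The entry miR-1948-5p, chosen after its values were seen, was at 0.453, 0.267, 0.258, 0.911 and 0.848 CPM at 1 week and 27.9, 39.2, 39.7, 45.1 and 37.5 CPM at 6 weeks. In 4 of the 5 1-week libraries it was at or under the floor of 3 counts, so it passed the filter through the later ages, where it was high, and its fitted log2 fold change of 5.90 ± 0.40 is given as a description. No 1-week library reached 1 CPM, and no 6-week library was under 27.9 CPM. Its level at 6 months was 34.05 ± 9.98 CPM and at 14 months 28.3 ± 11.3 CPM. The entry miR-690 was at 12.9, 9.09, 5.41, 10.9 and 1.41 CPM at 1 week and 64.2, 81.6, 50.3, 42.5 and 23.8 CPM at 6 weeks (log2 fold change 2.72 ± 0.46, adjusted p = 1.04e-05). Entries without a miRNA name, called unconservative in the deposited table, made up 0.118% of counts. Of the 52 tested, 20 rose and 3 fell (background 35% higher and 36.8% lower), so the share that rose was near that of all entries. The highest of them was at 13.2, 38.0, 23.7, 32.8 and 11.1 CPM at 1 week and 2172, 845, 153.9, 186 and 49.96 CPM at 6 weeks, mostly in mice 6 and 7, whose libraries were also the smallest.

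Families that share a seed did not always move as 1 unit. Among 36 seeds with at least 2 tested members, called members were all higher in 13 and all lower in 15, both directions occurred in 6, and no member was called in 2. The 3 members of the miR-148 family illustrate this, which are known to repress the DNA methyltransferase Dnmt1. While miR-148a-3p was higher, miR-152-3p, from an intron of Copz2 (chr11:96850393-96850465), was at 5577, 4545, 5426, 6326 and 5987 CPM at 1 week and 2231, 2384, 2622, 2324 and 3062 CPM at 6 weeks (log2 fold change -1.14 ± 0.16, adjusted p = 6.55e-07). From the paralogous Copz1, miR-148b-3p changed by -0.40 ± 0.15 (adjusted p = 0.021), with overlap between the ages and a change of 0.10 under upper quartile scaling, and its call was lost without mouse 4 or mouse 27. The ratio of miR-148a-3p to miR-152-3p was 6.89, 6.61, 9.20, 6.09 and 7.98 at 1 week and 37.5, 25.3, 20.1, 24.8 and 23.3 at 6 weeks, so it was higher in every 6-week library whatever the scaling. Summed over the seed, levels were 48670.2 ± 8801 CPM and 69268 ± 12510.5 CPM, set mainly by miR-148a-3p.

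In the seed of miR-15 and miR-16, which restrains the cell cycle, 1 of 6 tested members rose, 2 fell and 3 were not called. The rise was that of miR-195a-5p, at 34.5, 36.6, 99.4, 25.8 and 158 CPM at 1 week and 273, 215.4, 218, 176 and 256 CPM at 6 weeks (log2 fold change 1.68 ± 0.33, adjusted p = 6.16e-05), and the falls those of miR-322-5p and of miR-15b-5p (-1.47 ± 0.43). The ratio of miR-195a-5p to miR-322-5p was 0.0765, 0.0510, 0.0667, 0.0341 and 0.0718 at 1 week and 2.38, 1.45, 1.63, 2.28 and 1.51 at 6 weeks. Thus miR-322-5p exceeded miR-195a-5p in all 1-week libraries and the reverse held in all 6-week libraries. By level the seed was nearly all miR-16-5p, at 5951, 8164, 21279, 10827 and 29751 CPM at 1 week and 13888, 12198, 11378, 11284 and 12883 CPM at 6 weeks (log2 fold change -0.30 ± 0.27, adjusted p = 0.306). Its 6-week values lay inside the 1-week range, and without mouse 27 the change was 0.091 in place of -0.30. Without mice 4 and 27 it was 0.49 and called higher (adjusted p = 0.00917). For miR-15b-5p, which shares an intron of Smc4 with a copy of miR-16, levels were 150.3, 284, 1029, 238 and 1494 CPM at 1 week and 298.5, 232, 207, 200.02 and 221.2 CPM at 6 weeks, and its call was lost without mice 4 and 27.

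The seed of miR-99 and miR-100, regulators of mTOR signalling, was divided as well. Counted at nearly equal levels, miR-99a-5p and miR-100-5p rose alike (1.30 ± 0.21 and 1.30 ± 0.21), whereas miR-99b-5p was at 224, 268, 255, 384 and 220.8 CPM at 1 week and 120.0, 86.5, 151.99, 77.9 and 119.5 CPM at 6 weeks (log2 fold change -1.28 ± 0.20, adjusted p = 2.76e-06). With the trend over GC content removed, the change of miR-99b-5p was -0.28 (adjusted p = 0.223) and not called. The ratio of miR-100-5p to miR-99b-5p was 0.070 to 0.091 at 1 week and 0.270 to 0.774 at 6 weeks. The 3p arms were divided in the same way, with 2.39 ± 0.48 for miR-99a-3p and -2.58 ± 0.54 for miR-99b-3p. In the seed of miR-25, which belongs to the growth-promoting relatives of miR-17-92, miR-32-5p rose by 2.39 ± 0.24 and miR-25-3p fell by 0.46 on the log2 scale (0.014 and not called under upper quartile scaling, and not called without mouse 5), while miR-92a-3p was not called (-0.22 ± 0.21). Of 14 tested entries of miR-17-92 and its paralogs 8 fell and 2 rose (background 36.8% lower and 35% higher). With library totals 9 fell and none rose, and under upper quartile scaling 4 fell and 4 rose. Without mice 6 and 7, 5 of 15 fell and 3 rose. The deepest fall was that of miR-20b-5p (-2.83 ± 0.60), and the rises were those of the nearly equally counted miR-19a-3p and miR-19b-3p (0.99 ± 0.22, not called with library totals). Of the Hox-linked miR-10 family, miR-10a-5p rose by 0.88 ± 0.17, also not with library totals.

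Homologs of the developmental timing miRNA lin-4 were lower at 6 weeks, but this rested on mice 4 and 27. For miR-125a-5p levels were 302, 1259.8, 5809, 1046 and 14057 CPM at 1 week and 1226, 1145, 925, 369.1 and 460.3 CPM at 6 weeks (log2 fold change -2.45 ± 0.68, adjusted p = 0.00245). The 6-week values lay inside the 1-week range, which mouse 1 bounded below and mouse 27 above. For miR-125b-5p they were 354, 1226, 4485, 1076 and 10352 CPM at 1 week and 1253, 1729.5, 1363, 745 and 808 CPM at 6 weeks (log2 fold change -1.57 ± 0.59, adjusted p = 0.0207). Without mice 4 and 27 the change of miR-125a-5p was -0.17 and not called, and that of miR-125b-5p was 0.33, the opposite sign. The call of miR-125b-5p was also lost without mouse 27, mouse 9 or mouse 10 alone. The hairpins of let-7e (chr17:17830352-17830444) and miR-125a (chr17:17830812-17830879) lie close together in Spaca6. The ratio of let-7e-5p to miR-125a-5p was 7.00, 1.76, 0.281, 2.02 and 0.111 at 1 week and 2.63, 2.97, 3.39, 7.60 and 7.95 at 6 weeks. Neighbours in 1 transcript were thus in unlike ratios even within the 1-week group. The third miRNA with this seed, miR-351-5p of the X-linked cluster, fell without such overlap.

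**Figure D3:**
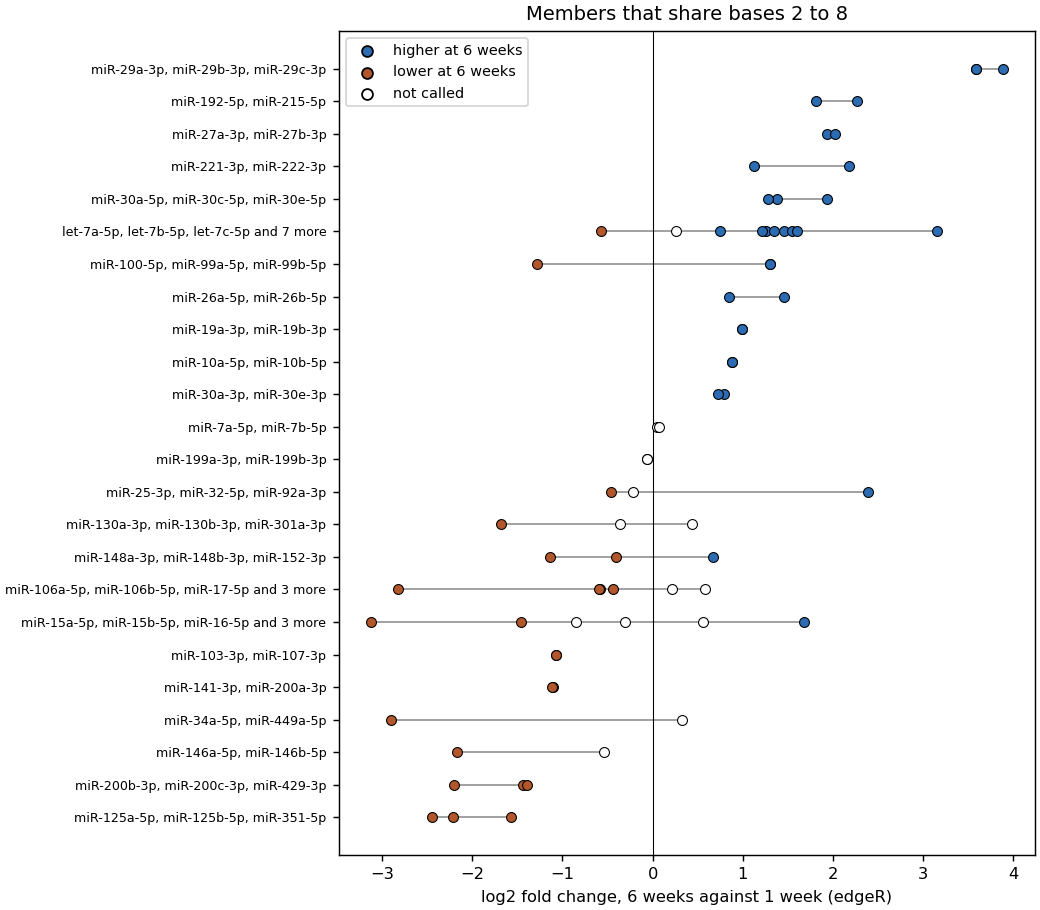
Log2 fold change (6 weeks against 1 week, horizontal axis) of the members of each seed family with at least 2 tested members and a summed level of at least 100 CPM at either age; each point is 1 miRNA, filled by its call, and a line joins a family. Members of the let-7, miR-99 and miR-100, miR-25, miR-148 and miR-15 seeds were called on both sides of 0.

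Arms of 1 hairpin give a comparison that needs no scaling, since both are counted in the same library. Of 326 precursors with both arms in the table, 22 had a mean of at least 20 counts per arm at each age. The 5p to 3p ratio differed in 8 of these 22 (36.4%, limma, adjusted p of 0.05), lower in 6 and higher in 2, and in 5 (22.7%) the ages did not overlap. An exact two-sided permutation test per pair called 5, with 0.00794 as its smallest p. In 6 of the 8 the less abundant arm gained.

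In miR-31 the ratio of 5p to 3p counts was 42.4, 80.8, 81.7, 269 and 149 at 1 week and 23.5, 14.2, 6.70, 8.87 and 18.5 at 6 weeks (log2 shift -2.98 ± 0.44, adjusted p = 5.59e-06). The 3p share was 1.15% at 1 week and 7.78% at 6 weeks. The level of miR-31-3p was 11.8, 8.82, 7.47, 1.52 and 7.07 CPM at 1 week and 23.7, 35.9, 70.7, 46.9 and 39.8 CPM at 6 weeks (log2 fold change 2.56 ± 0.38, adjusted p = 1.59e-06), while miR-31-5p was at 448.96 to 1062 CPM at 1 week and 419.5 to 741 CPM at 6 weeks and was not called (-0.30 ± 0.23). In miR-192 the ratio was 259.8, 472, 241, 412.1 and 484 at 1 week and 99, 136.4, 121.98, 129.8 and 115 at 6 weeks (log2 shift -1.58 ± 0.20, adjusted p = 6.07e-07). Both arms rose, with 48.5, 16.3, 24.99, 31.3 and 8.67 CPM at 1 week and 371, 302, 343, 323.04 and 417 CPM at 6 weeks for miR-192-3p (log2 fold change 3.76 ± 0.31, adjusted p = 1.05e-10). In miR-122 the ratio was 4371, 3958, 2775, 6319.7 and 2313 at 1 week and 1229, 1353, 1199.7, 1119.5 and 1207 at 6 weeks (log2 shift -1.60 ± 0.27, adjusted p = 3.26e-05), where miR-122-3p was at 82.1, 90.9, 147, 82.0 and 157 CPM at 1 week and 511, 473, 481, 500.0 and 461 CPM at 6 weeks. The rare arm of the most abundant liver miRNA thus rose (2.11 ± 0.24) by more than the common one, with library totals too (1.46).

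The ratio of miR-455, from an intron of the collagen gene Col27a1, shifted by -1.92 ± 0.49 (adjusted p = 0.00265), with a 3p share of 5.40% at 1 week and 17.5% at 6 weeks. Here miR-455-5p fell (-0.84 ± 0.27, not called without mice 4 and 27 or under upper quartile scaling) and miR-455-3p was not called (1.11 ± 0.55). That of miR-802, a hepatocyte miRNA, shifted by -1.08 ± 0.24 (adjusted p = 0.000641), with miR-802-3p up by 1.73 ± 0.41. That of miR-126a shifted by -0.76 ± 0.22 (adjusted p = 0.00726) towards its abundant 3p arm. The opposite direction was seen in miR-22 (log2 shift 1.64 ± 0.49, adjusted p = 0.00928), whose ratios were 0.0869, 0.0391, 0.0206, 0.0686 and 0.00502 at 1 week and 0.119, 0.0893, 0.0705, 0.0717 and 0.130 at 6 weeks. There mouse 27 was far lowest, and miR-22-5p was at 32.9, 29.4, 19.8, 34.9 and 11.1 CPM at 1 week and 151, 140.3, 145.2, 144.3 and 236 CPM at 6 weeks (log2 fold change 2.68 ± 0.30, adjusted p = 2.01e-08). The shift of miR-30a was small (log2 shift 0.53 ± 0.21, adjusted p = 0.0463) and was called in 2 of 10 fits that left out 1 library, whereas the other 7 held in all 10.

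**Figure D4:**
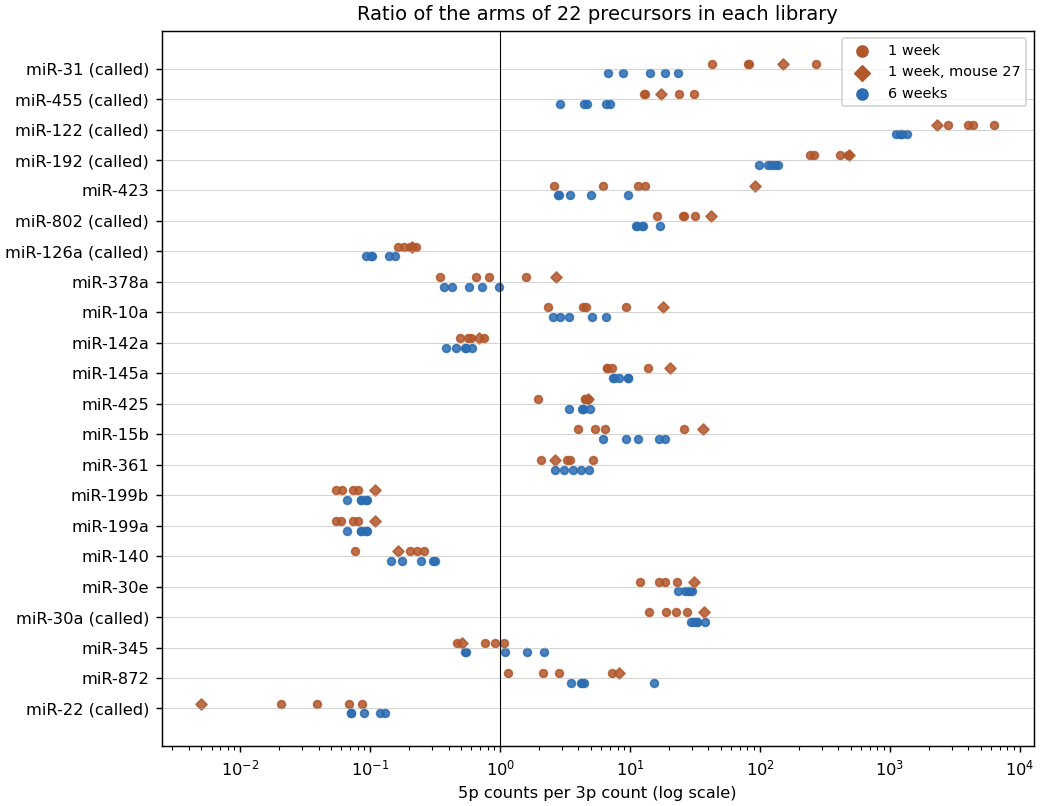
Counts of the 5p arm per count of the 3p arm (horizontal axis, log scale) for 22 precursors in each library, with 1-week libraries above and 6-week libraries below each line and mouse 27 marked; precursors are ordered by shift. The ratios of miR-31, miR-455, miR-122, miR-192 and miR-126a do not overlap between the ages.

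The number of miRNAs with at least 1 count was compared at equal depth, after thinning each library to 641579 counts. It was 646 ± 49.6 entries at 1 week and 559 ± 28.5 at 6 weeks (mean ± SD, n = 5), a difference of -86.4 (exact two-sided permutation test, p = 0.00794, the smallest this design allows; 0.0159 adjusted over 4 tests). The ages did not overlap, with 599 to 726 against 516 to 593 entries. Without thinning the means were 795 and 617. The share of counts outside the 10 most abundant entries was 18.9% ± 3.38 at 1 week and 16.4% ± 1.34 at 6 weeks and the difference did not pass the test (exact two-sided permutation test, p = 0.167, adjusted 0.222). Mouse 27 had the highest share, 24.2%. Without mouse 27 the difference was -1.14 percentage points in place of -2.46, and without mouse 5 it was -3.45 and passed the test.

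Levels at the later ages, from the same fit, show where the 6-week state lay. The imprinted Dlk1-Dio3 list summed to 380.1 ± 172 CPM at 6 weeks and 367 ± 162 CPM at 14 months, and the X-linked cluster to 211 ± 35.8 and 178 ± 48.1 CPM. The epithelial list was at 415 ± 41.2 CPM and 501 ± 87.7 CPM. These sums at 14 months lay near those at 6 weeks. The miR-29 list was at 15029 ± 5445 CPM at 6 weeks, 27402 ± 6329 CPM at 6 months and 41621 ± 14807 CPM at 14 months, so its mean was higher still in older mice. The miR-30 list was at 35159 ± 2478 CPM and 34089 ± 2385 CPM. Differences between the later ages were not tested here.

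**Figure D5:**
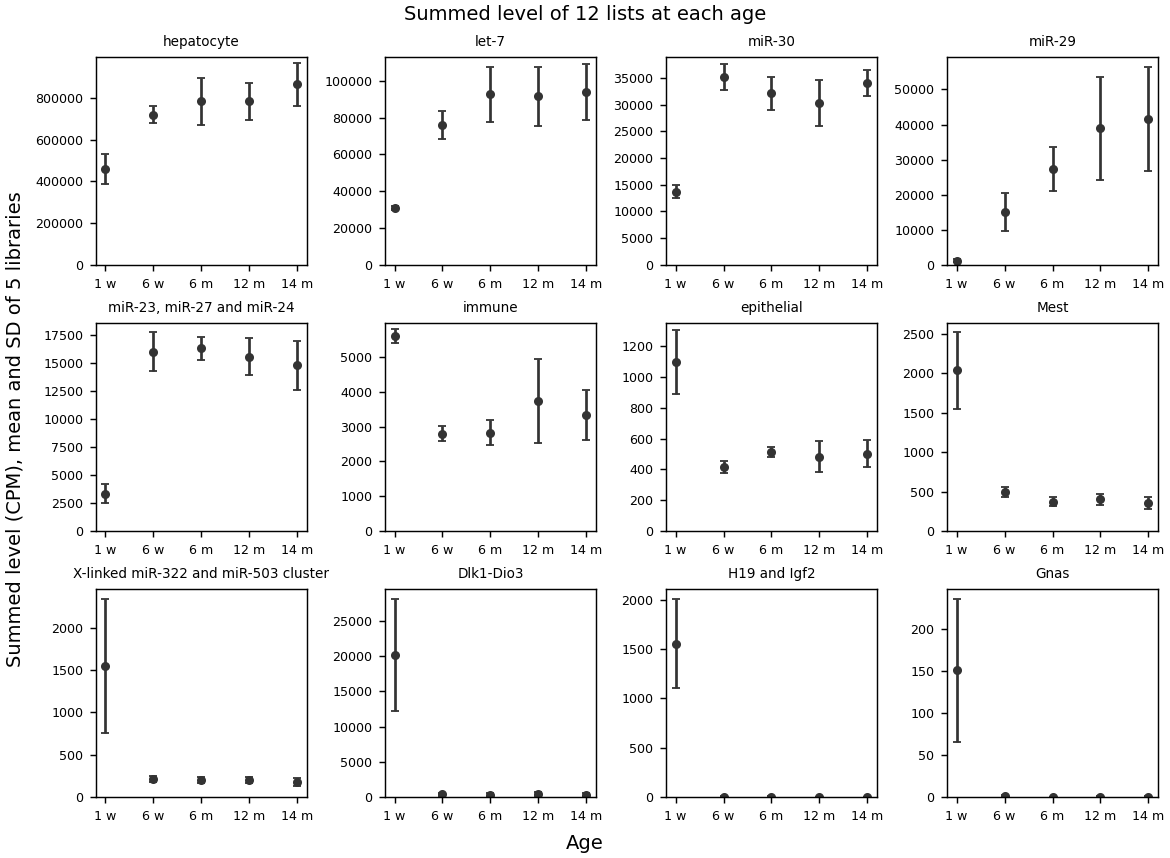
Summed level (CPM, vertical axis, each panel with its own scale from 0) of 12 lists at 1 week, 6 weeks, 6 months, 12 months and 14 months; points are means and bars the SD of 5 libraries. In the imprinted lists and the X-linked cluster the 1-week mean stands above all later ones, and in the miR-29 list the mean is higher at each later age.

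Base composition moved with the changes. Over the 293 tested miRNAs with a RefSeq sequence, the log2 fold change and the GC content had a Pearson correlation of -0.191 and a Spearman correlation of -0.165 across miRNAs, which share libraries and are not independent. Outside Dlk1-Dio3 the median log2 fold change was 0.52 for miRNAs of up to 40% GC and -0.48 for those above 55%. With this trend removed 104 were higher and 129 lower, against 97 and 128 of the same entries without the correction. The call of miR-99b-5p, and the rises of miR-148a-3p and miR-26b-5p, were lost with it, and its part in other results was not tested.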

How the data were processed

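Small RNA of liver vesicles was counted in 25 libraries, of which the 10 of mice aged 1 week and 6 weeks are compared here. The file that the authors deposited holds raw counts per miRNA; per the submitters' processing notes they used Bowtie, edgeR and the mouse build mm10. The miRNA annotation, mismatches allowed and use of molecular identifiers are not given in the sources used here, so floors and intervals cover counting error only. Counts were fitted with edgeR 4.0.16 (TMM, filterByExpr, robust quasi-likelihood) over all 25 libraries, which share the estimate of spread, with the contrast of 6 weeks minus 1 week and Benjamini-Hochberg adjustment over 391 entries. The remaining 1102 entries held 0.0970% of counts. The biological coefficient of variation was 37.6%. SEs were taken from the size of the log2 fold change and its quasi-likelihood F statistic. Arm ratios, log2 with 0.5 added to each count, were fitted with limma 3.58.1, and single values were compared by exact two-sided permutation tests (scipy 1.17.1), 4 in the family. The edgeR and limma fits were tested on simulated data with known changes, and the exact test on a made-up case without overlap. No 2 libraries of the same age held identical counts (20 pairs, chi-square per degree of freedom at least 13.0). Labels give 1 mouse per library.

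Members and lists were chosen with earlier results of these data known. Named were the 12 largest rises and falls of entries at 50 CPM or more, up to 8 members of a list, the 10 most abundant entries and the 8 largest called arm shifts; seed members, ratios and miR-1948-5p were added after their values were seen. Alternatives were other scalings, filters, DESeq2 1.42.0, thinned counts and libraries left out. Leaving out pairs of libraries and the GC correction was chosen after seeing the data. Sequences and hairpin positions are from RefSeq (GRCm38.p6), which matched 293 of the 339 tested named miRNAs; host genes are from the GENCODE annotation of GRCm38.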

Additional observations from a re-analysis of the deposited data

Results flagged for a closer look

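Several values lay farther from the other 4 libraries of their age than a Dixon test at 95% allows (gap over range above 0.71), which chance alone gives in about 1 in 20 groups. Over all 391 tested entries 27 (6.91%) were so marked at 1 week and 28 (7.16%) at 6 weeks. Mouse 27 had the largest library, 6888928 counts against 2621883 in the next of its age, and the highest 1-week levels of miR-1a-3p (118.7 CPM, next 31.5) and miR-503-5p (165 CPM, next 94.3). Mouse 5 was highest in miR-99b-5p at 384 CPM, with the next at 268 CPM.

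At 6 weeks mouse 10 was far highest in miR-29a-3p (11377 CPM, next 6605) and the nearly equally counted miR-29c-3p (11411 CPM, next 6619). It was also highest in miR-22-5p (236 CPM, next 151), miR-146b-5p (154.03 CPM, next 94.6) and miR-99a-3p (18.4 CPM, next 11.5). Small levels of miRNAs that had fallen were highest in it too: miR-483-5p at 19.6 CPM (next 4.84), miR-494-3p at 9.52 CPM (next 4.43) and miR-483-3p at 0.595 CPM, with 0 in the others. Mouse 6 was highest in miR-29b-2-5p (6.98 CPM, next 2.97), miR-298-5p (1.40 CPM, with 0 in the others) and the 5p to 3p ratio of miR-802 (16.9, next 12.5). Mouse 8 was highest in miR-431-5p at 6.78 CPM, with the next at 1.63 CPM. The inflammation-related miR-146b-5p itself fell between the ages, from 382.3 to 569.5 CPM to 77.4 to 154.03 CPM (log2 fold change -2.17 ± 0.30, adjusted p = 5.65e-07). Of entries marked at 6 weeks over all tested ones, 13 were high in mouse 10 and 9 in mouse 6.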

How the results depend on the processing

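No paired analysis was possible because no mouse number occurs at both ages. Of 281 called entries (137 higher, 144 lower), library totals alone left 88 higher, and a mean of at least 10 counts at each age, with 224 entries tested, left 157 (67 higher, 90 lower). Leaving out 1 library gave 273 to 296 calls, 132 to 150 higher and 135 to 151 lower. The exact permutation test called 5 arm ratios in place of 8, and leaving out 1 library gave 7 to 10. The difference in detected entries ran from -101 to -72.5 when 1 library was left out. The difference in the share outside the 10 most abundant entries, -2.46 percentage points, ran from -3.45 to -1.14 likewise, and it passed the test without mouse 5 of the 1-week group, outside the 20 most abundant (-2.70) and without miR-122-5p in the denominator (-9.82); the cause was not tested.

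Of 108 named entries 77 calls held in all of up to 24 alternatives and 25 were lost in at least 1. Signs turned in 12 of the 108. In log2 fold change, with library totals miR-122-5p was at -0.083. With the filter of 10 counts it was at -0.26, let-7e-5p at -0.072, miR-148a-3p at -0.16, miR-24-3p at -0.045 and miR-143-3p at -0.14. With upper quartile scaling miR-148b-3p was at 0.10, miR-16-5p at 0.25, miR-451a at 0.18, miR-31-5p at 0.19, miR-25-3p at 0.014 and miR-92a-3p at 0.29. With the library total as a covariate miR-16-5p was at 0.15 and miR-31-5p at 0.12. Leaving out 1 library put miR-16-5p between -0.47 and 0.091, the latter without mouse 27, and without mice 4 and 27 it was at 0.49 and miR-125b-5p at 0.33. Without mice 6 and 7 miR-451a was at 0.19, and with the GC trend removed miR-92a-3p was at 0.24. The filter of 10 counts also ended the rises of let-7b-5p, miR-101b-3p, miR-22-3p, miR-26b-5p, miR-222-3p, miR-10a-5p, miR-126a-3p, miR-145a-5p, miR-19a-3p and miR-19b-3p, and the covariate the falls of let-7i-5p, miR-148b-3p, miR-455-5p, miR-15b-5p, miR-125a-5p, miR-125b-5p and miR-25-3p. The cause of these changes was not tested.

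The depth of the 6-week libraries limits the falls: a miRNA without counts there can still lie at up to 1.78 to 4.89 CPM.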
